A study of Homo sapiens with 4 samples.

Results

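NADPH supply was examined in LNCaP cells through 9 genes: the malic enzymes ME1, ME2 and ME3, the pentose phosphate enzymes PGD, TKT and TALDO1, the isocitrate dehydrogenases IDH1 and IDH2, and the proton-driven transhydrogenase NNT. They were taken by name, with every probe set annotated to that gene alone, which gave 26 of the 44988 single-gene probe sets and 9 of the 18132 genes on the array. The names were chosen with earlier results of these data known, so the shares of all genes given below are no comparison against chance. LNCaP is an androgen-responsive prostate cancer cell line, grown here in RPMI-1640 with 10% fetal bovine serum. In 2 arrays the cells had received exosomes, which are small secreted vesicles, of PC-3, an androgen-independent prostate cancer line. The other 2 arrays were controls, whose treatment description names PBS, a buffer, while their agent label reads none. They are called PBS arrays here. Both groups were of the same line, with no other treatment named. The labels give no dose, length of exposure, vesicle preparation or number of cultures, so p-values measure only the spread between these arrays, which may be technical.

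NADPH is the electron donor of reductive metabolism. It serves fatty acid, cholesterol and steroid reduction, which prostate cells rely on, and it regenerates glutathione and thioredoxin after oxidant exposure. In the cytosol it is made by ME1 from malate, by IDH1 from isocitrate and by PGD in the oxidative branch of the pentose phosphate pathway, whose sugar phosphates TKT and TALDO1 then rearrange. In mitochondria it is made by ME3, IDH2 and NNT, while ME2 works mainly with NAD. ME1, PGD, TKT, TALDO1 and IDH1 are among the genes that the oxidant-sensing transcription factor NRF2 is known to drive.

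The arrays were close to each other as deposited, with median intensities over single-gene probe sets of 113.2 and 112.5 in exosome replicates 1 and 2, and of 114.0 and 113.7 in PBS replicates 1 and 2. Having 4 arrays limits the precision, and an exact two-sided permutation test of 2 arrays against 2 cannot go below 0.333, so each p below comes from the variance model of limma. Of 8 LNCaP markers listed, 5 were measured, KLK3, KLK2, TMPRSS2, HOXB13 and STEAP2, at means of 3241 to 14010 with exosomes and 3347 to 14186 with PBS. The description of RNA extraction in the labels speaks of brain tissue. The neuronal marker SNAP25 stood at 114 with exosomes and 118 with PBS. The astrocyte markers AQP4 and GFAP stood at 24.6 and 287 with exosomes, against 22.8 and 263 with PBS. In limma 0 of 8 measured brain markers passed the test, with 1 higher and 1 lower before adjustment. That test compares the groups and cannot show whether brain RNA was present in both. The 8 ranged from 24.6 to 867 with exosomes and from 22.8 to 764 with PBS, MBP being the highest. MBP, GFAP and NEFL lay above the median gene level of 195, and the other brain markers below it. Of 8 PC-3 markers, LCN2 alone passed, at 351 with exosomes and 178 with PBS, and the others lay at 50.6 to 525 with exosomes and 49.4 to 551 with PBS. The part of other cells in the results was not tested. In a bulk sample a change per cell and a change in the share of cells cannot be told apart.

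ME1 and IDH1, 2 of the 9 genes, rose after PC-3 exosomes, each 1.27-fold, and 0 fell. The call was an adjusted p under 0.05 in limma over all 18132 genes, which 0.700% of all genes met upward and 0.188% downward. Before adjustment, p was under 0.05 in 5 of the 9, all higher, beside 5.75% of all genes higher and 5.16% lower. The members' median log2 fold change was 0.11, beside -0.01 over all genes. Neither call held in every fit with an array left out: ME1 passed in 1 of 4 and IDH1 in 0 of 4. With a variance model that has no trend in level, neither passed (adjusted p = 0.235 for ME1 and 0.178 for IDH1).

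**Figure D1:**
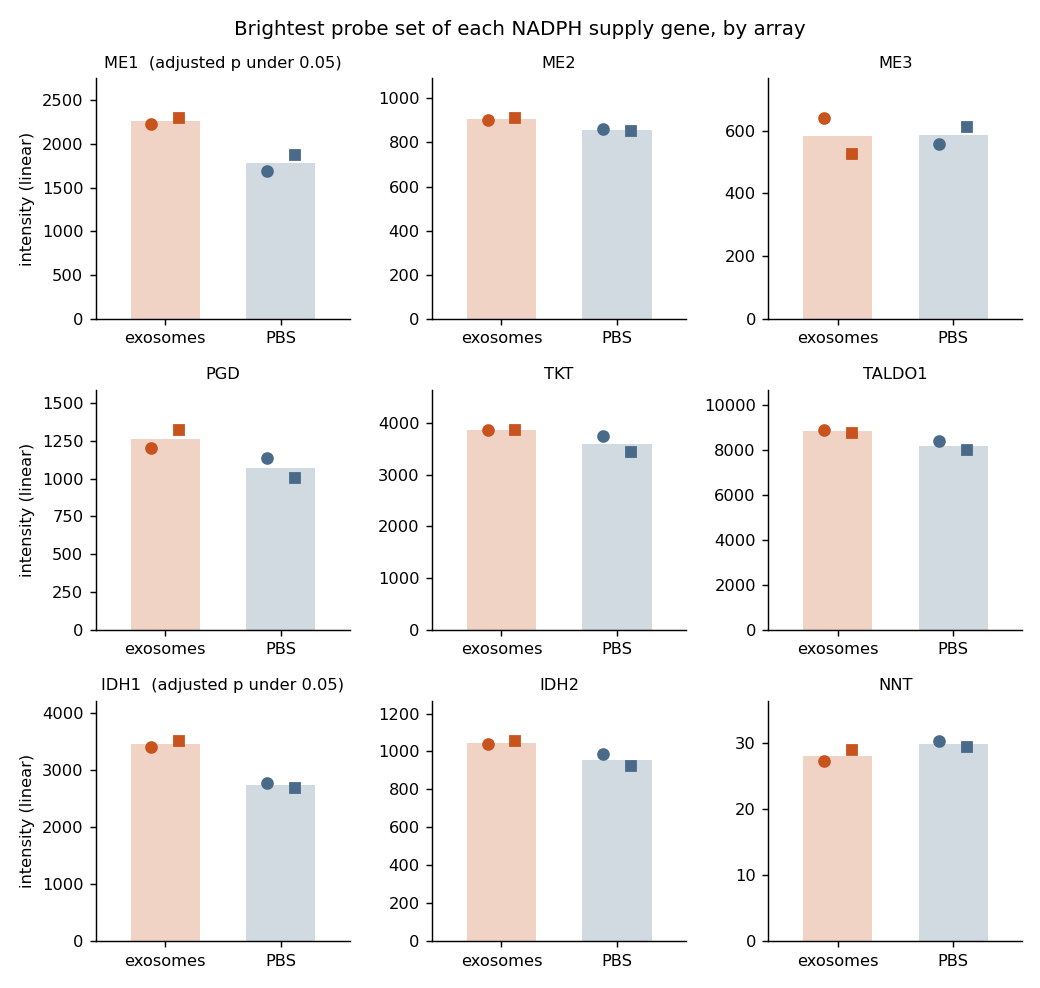
Linear intensity (y axis, from 0) of the brightest probe set of each gene in the exosome arrays (left bar) and PBS arrays (right bar). Circles are replicate 1, squares replicate 2 and bars the mean of 2 arrays. Both exosome arrays lie above both PBS arrays in 7 genes, overlap with them in ME3 and lie below them in NNT.

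The 2 genes that rose are shown first by their promoters, because both held a match to the core of the antioxidant response element, the site NRF2 binds. The windows run from 250 bases before to 50 bases after the transcription start, 5′ to 3′ on the gene's strand, from RefSeq on GRCh38.p14. Capitals mark TGACNNNGC on either strand. The ME1 window is chr6:83431002-83431301 on the minus strand. The IDH1 window is chr2:208255022-208255321 on the minus strand, and a further IDH1 window in the table held no match.
ME1: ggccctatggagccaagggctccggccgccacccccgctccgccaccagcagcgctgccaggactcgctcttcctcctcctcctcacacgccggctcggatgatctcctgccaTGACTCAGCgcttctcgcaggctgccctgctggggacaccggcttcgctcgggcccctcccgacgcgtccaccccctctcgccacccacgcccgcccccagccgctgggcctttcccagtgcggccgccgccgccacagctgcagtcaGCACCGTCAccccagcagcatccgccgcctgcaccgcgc
IDH1: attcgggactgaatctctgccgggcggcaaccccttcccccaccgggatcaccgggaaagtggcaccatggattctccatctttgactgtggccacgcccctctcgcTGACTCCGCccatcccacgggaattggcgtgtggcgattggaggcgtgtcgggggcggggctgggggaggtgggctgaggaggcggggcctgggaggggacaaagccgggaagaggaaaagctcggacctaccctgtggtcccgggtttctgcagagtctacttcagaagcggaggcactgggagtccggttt

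In ME1 the first match read TGACTCAGC and began at position -137 from the start site. It contained TGACTCA, which also fits TGANTCA, the site of AP-1 factors. A second ME1 match, TGACGGTGC on the opposite strand, began at position 11. In IDH1 the match read TGACTCCGC and began at position -143. PGD was the other member with a match, TGACATTGC on the opposite strand at position -201, in the window chr1:10398814-10399113 on the plus strand.
PGD: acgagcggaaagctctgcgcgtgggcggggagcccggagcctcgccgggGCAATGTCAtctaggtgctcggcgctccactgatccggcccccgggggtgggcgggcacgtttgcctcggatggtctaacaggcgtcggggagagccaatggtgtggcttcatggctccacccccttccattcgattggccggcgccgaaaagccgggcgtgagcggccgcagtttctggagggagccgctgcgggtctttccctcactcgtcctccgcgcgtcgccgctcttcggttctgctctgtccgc

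All 9 genes had at least 1 window, 13 in all, of which 3 held TGACNNNGC and 1 held TGANTCA. Over all 35116 promoter windows of this length, 13.3% held TGACNNNGC and 7.71% held TGANTCA. By gene, 3 of the 9 members had a window with TGACNNNGC, beside 16.1% of 27305 genes. Whether the matches bear on the rises was not tested. A match describes the letters of a window and not binding.

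ME1, the cytosolic malic enzyme, had the largest fold of the 9 genes. Its brightest probe set read 2236 and 2294 with exosomes, against 1688 and 1871 with PBS. Both exosome arrays were above both PBS arrays, and PBS replicate 1 was the lowest. It averaged 2265 ± 41.0 in exosome arrays and 1779 ± 129 in PBS arrays (SD, n = 2 each). The log2 fold change, exosomes minus PBS on values plus 1, was 0.35 (SE 0.056, limma adjusted p = 0.0258), a 1.27-fold rise with a 95% interval of 1.17 to 1.39. The second ME1 probe set read 1721 and 1942 with exosomes, against 1217 and 1420 with PBS, again without overlap. Its log2 fold change was 0.48 (SE 0.086).

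Neither ME1 probe set passed when all 44988 probe sets were tested, with adjusted p = 0.0894 and 0.114 in limma. In the gene fit, ME1 had log2 fold changes of 0.28 to 0.42 with an array left out, and adjusted p from 0.0499 to 0.287. It passed only without PBS replicate 2.

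ME2, the mitochondrial malic enzyme that uses NAD, had a separated but small difference. It read 903 and 909 with exosomes, against 864 and 851 with PBS. The 2 groups did not overlap, and the log2 fold change was 0.08 (SE 0.050, limma adjusted p = 0.620), with a 95% interval of the fold of 0.977 to 1.14. Its second probe set read 551 and 568 with exosomes, against 507 and 479 with PBS, a log2 fold change of 0.18 (SE 0.062).

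ME3, the mitochondrial NADP-dependent malic enzyme, showed no direction. Its brightest probe set read 639 and 526 with exosomes, against 558 and 613 with PBS, so the exosome arrays held both the highest and the lowest value. The log2 fold change was -0.01 (SE 0.092, limma adjusted p = 0.990), and the 95% interval of the fold ran from 0.858 to 1.15. Its other 2 probe sets were dimmer, at 62.2 to 77.7 and 21.6 to 27.4 over the 4 arrays, with log2 fold changes of 0.12 and 0.16 and overlapping groups. The difference between the folds of ME1, ME2 and ME3 was not tested.

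Of the pentose phosphate enzymes, all 3 had both exosome arrays above both PBS arrays, and 0 of 3 passed the test. PGD, which releases NADPH from 6-phosphogluconate, read 1205 and 1324 with exosomes, against 1136 and 1001 with PBS. The gap between the groups was smaller than the distance between either pair of replicates. The log2 fold change was 0.24 (SE 0.072, limma adjusted p = 0.221), a 1.18-fold difference with a 95% interval of 1.06 to 1.32. Its second probe set read 1104 and 1077 with exosomes, against 1027 and 927 with PBS, and its log2 fold change was 0.16 (SE 0.063).

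TKT, transketolase, moves carbon units between sugar phosphates and links the pathway to glycolysis. It read 3871 and 3861 with exosomes, against 3751 and 3446 with PBS, and PBS replicate 2 stood lower than the other 3 arrays. The log2 fold change was 0.10 (SE 0.048, limma adjusted p = 0.469), 0.04 without PBS replicate 2 and 0.17 without PBS replicate 1. The probe set carries the suffix _x_at, which the maker gives where some probes resemble other sequences. The other 2 TKT probe sets had log2 fold changes of 0.05 and 0.13.

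TALDO1, transaldolase, read 8922 and 8769 with exosomes, against 8394 and 7993 with PBS. The 2 groups were apart, and the log2 fold change was 0.11 (SE 0.037, limma adjusted p = 0.299), a 1.08-fold difference with a 95% interval of 1.02 to 1.14. A second, dim probe set went the other way, at 52.5 and 47.4 with exosomes, against 62.9 and 48.3 with PBS, with overlapping groups and a log2 fold change of -0.14 (SE 0.13).

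IDH1, the cytosolic isocitrate dehydrogenase, had the smallest p of the 9 genes. Its brightest probe set read 3404 and 3510 with exosomes, against 2776 and 2679 with PBS. The distance between the groups was several times that between replicates. It averaged 3457 ± 75.0 in exosome arrays and 2728 ± 69.0 in PBS arrays (SD, n = 2 each). The log2 fold change was 0.34 (SE 0.042, limma adjusted p = 0.0085), a 1.27-fold rise with a 95% interval of 1.19 to 1.35.

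The IDH1 rise was also seen probe set by probe set. In the limma fit over 44988 probe sets, 3 of the 26 member probe sets were higher and 0 lower, beside 0.238% of all probe sets higher and 0.0200% lower, and the 3 were the 3 probe sets of IDH1. The second IDH1 probe set read 3354 and 3475 with exosomes, against 2749 and 2722 with PBS, and differed by 0.32 on the log2 scale (SE 0.042, adjusted p = 0.0407). The dimmest read 1290 and 1420 with exosomes, against 984 and 965 with PBS, and differed by 0.47 on the log2 scale (SE 0.061, adjusted p = 0.0363). The brightest one had an adjusted p of 0.0361 in that fit. Whether the 2 bright probe sets share probes is not known here, so the 3 are readings of 1 transcript pool and not replicates. Both bright ones carry the suffix _s_at, and whether their probes also match other transcripts was not tested. With an array left out, the gene's log2 fold change stayed between 0.32 and 0.37 and its adjusted p lay between 0.0559 and 0.158.

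**Figure D2:**
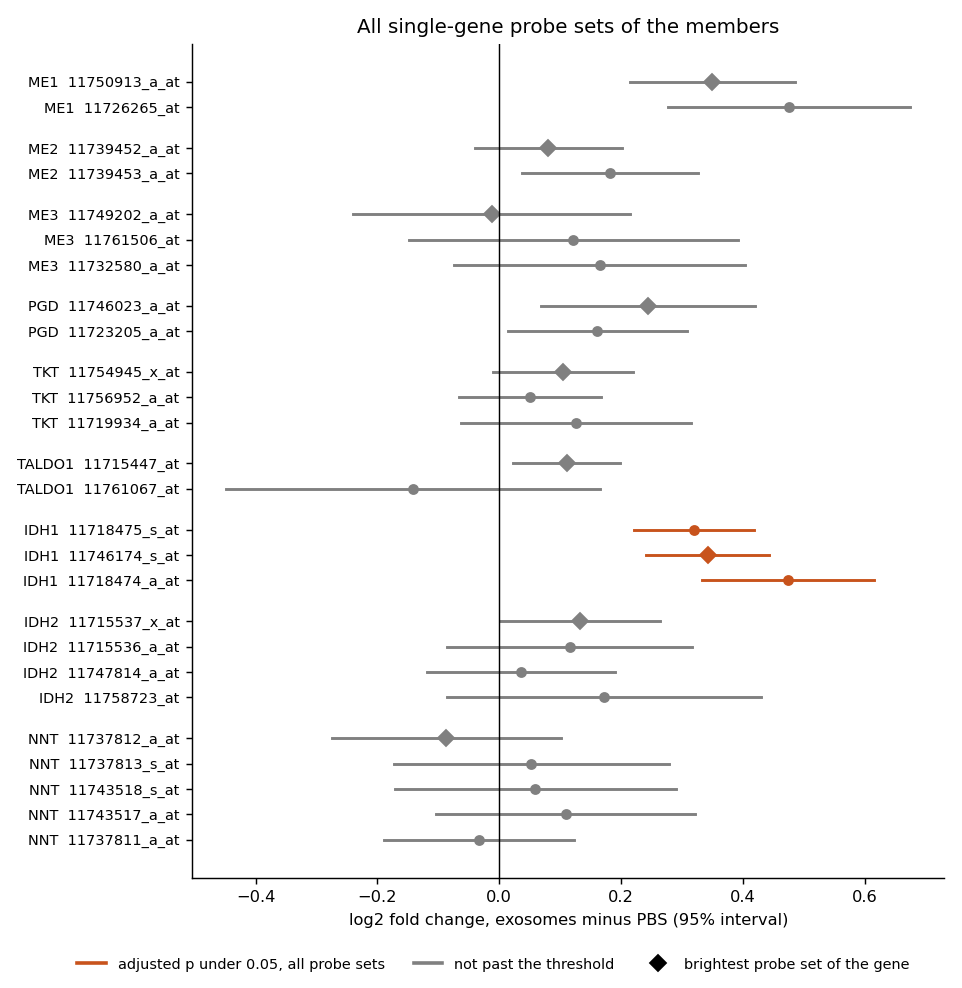
Log2 fold change, exosomes minus PBS (x axis), with the 95% interval from limma for each of the 26 probe sets (rows). Orange marks an adjusted p under 0.05 over all probe sets and diamonds the brightest probe set of a gene. The 3 IDH1 probe sets lie at 0.32 to 0.47, and both ME1 intervals lie above 0 without passing the adjustment.

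IDH2, the mitochondrial isocitrate dehydrogenase, read 1037 and 1056 with exosomes, against 988 and 923 with PBS. The groups did not overlap in this probe set, which also carries the suffix _x_at, and overlapped in the gene's other 3. The log2 fold change was 0.13 (SE 0.054, limma adjusted p = 0.416), a 1.10-fold difference with a 95% interval of 1.01 to 1.19. The other 3 probe sets had log2 fold changes of 0.04 to 0.17. In all 4 IDH2 probe sets PBS replicate 2 was the lowest array. The difference between the folds of IDH1 and IDH2 was not tested.

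NNT, which uses the mitochondrial proton gradient to reduce NADP with NADH, was dim in all 5 of its probe sets, at intensities of 14.6 to 30.4 over the 4 arrays. The brightest lay at percentile 17.4 of all single-gene probe sets. The 23 background control probe sets had medians of 18.7 to 19.4 with exosomes and 19.3 to 19.6 with PBS. They spanned 10.4 to 3750, so their median sets no detection limit, and a change of NNT may not have been measurable at this signal. The brightest NNT probe set read 27.3 and 29.0 with exosomes, against 30.4 and 29.5 with PBS. Its log2 fold change was -0.09 (SE 0.082, limma adjusted p = 0.776), and the 5 probe sets ran from -0.09 to 0.11.

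Over the set, both exosome arrays were above both PBS arrays in 7 of 9 genes, beside 17.8% of all genes, and below them in 1, beside 21.9%. Over the 26 probe sets the counts were 13 and 2, beside 17.2% and 20.5% of all probe sets. Probe sets of a gene share a transcript, and genes of a pathway are not replicates, so these counts carry no test. PBS replicate 2 was the lowest array in 6 of the 9 genes, beside 27.7% of all genes, and in 15 of the 26 probe sets, beside 28.7%. Where it is the lowest array, the fold must be smaller without it. Without it the log2 fold changes of these 6 were 0.15 for PGD, 0.04 for TKT, 0.08 for TALDO1, 0.08 for IDH2, 0.32 for IDH1 and 0.07 for ME2. Without PBS replicate 1 they were 0.34, 0.17, 0.15, 0.18, 0.37 and 0.09 in the same order.

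**Figure D3:**
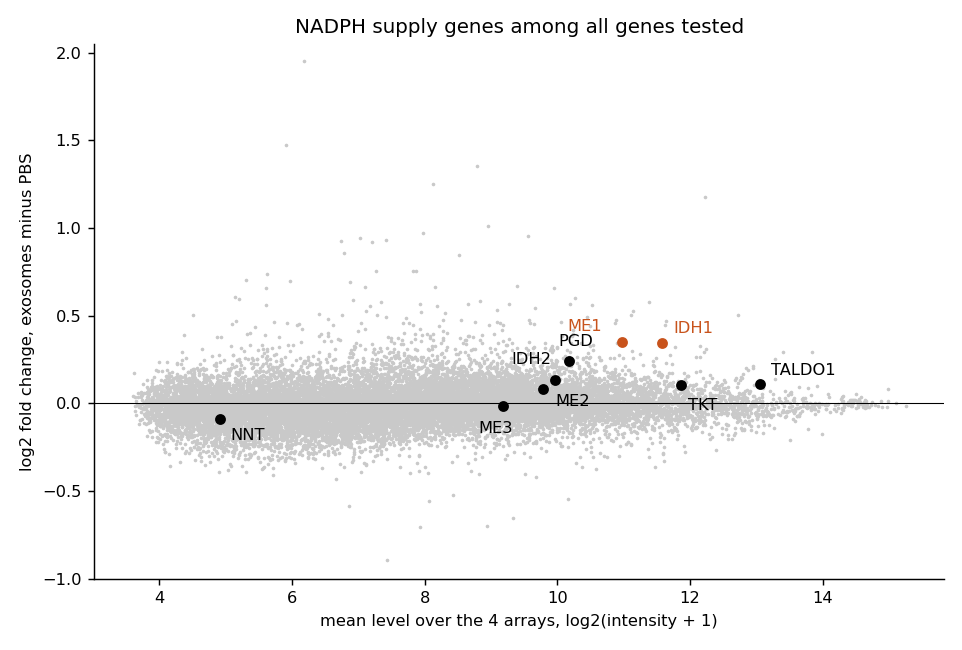
Log2 fold change, exosomes minus PBS (y axis), against the mean level over the 4 arrays as log2 of intensity plus 1 (x axis) for 18132 genes, in grey. ME1 and IDH1 in orange passed the test at 0.35 and 0.34, and the other 7 members in black lie between -0.09 and 0.24.

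The direction of the smaller differences depended on the scale. The poly-A spike-in controls had mean log2 values of 6.94 and 7.02 in the exosome arrays, against 6.90 and 6.77 in the PBS arrays. Centred on them, the median of all genes was -0.15, and 7 of 9 members were above that median. Centring lowers every log2 fold change by the same 0.14, so this count cannot differ from that on the deposited scale. Over all genes this scale gave 60 higher and 326 lower calls, against 127 higher and 34 lower as deposited. On that scale ME1 had a log2 fold change of 0.21 (adjusted p = 0.148), IDH1 0.20 (adjusted p = 0.174) and PGD 0.10, and the other 6 were below 0. Of the 26 probe sets, 2 passed on that scale in limma: the second of ME1 at 0.34 (adjusted p = 0.0118) and the dimmest of IDH1 at 0.33 (adjusted p = 0.0124). How the spike-ins were dosed is not stated in the labels.

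**Figure D4:**
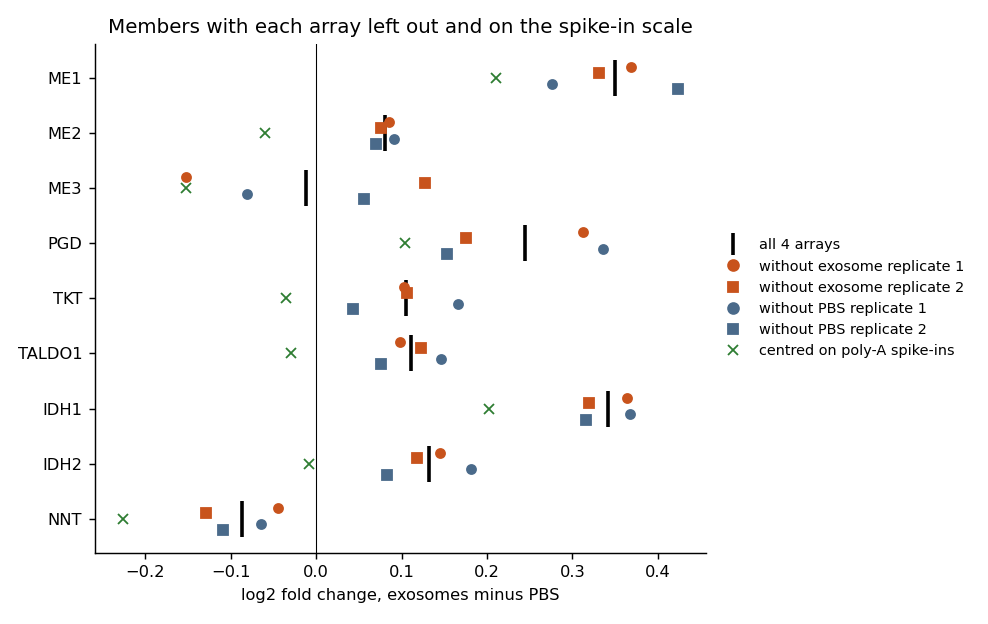
Log2 fold change, exosomes minus PBS (x axis), of each gene (rows) with all 4 arrays (black bars), with 1 array left out (circles and squares) and centred on the poly-A spike-ins (crosses). ME1 and IDH1 stay above 0 throughout, at 0.20 to 0.42, while ME3 lies on both sides of 0 with an array left out. ME2, TKT, TALDO1 and IDH2 lie below 0 on the spike-in scale only.

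Around the members, 5 lists of related genes were read in the same fit, and differences between the lists were not tested. Of 12 further pentose phosphate and ribose genes 0 rose and 0 fell in limma, their unadjusted p was under 0.05 in 1, which was higher, and their median log2 fold change was 0.04. That gene was RBKS, ribokinase, at 219 and 218 with exosomes, against 174 and 164 with PBS. Its log2 fold change was 0.37 (SE 0.073, limma adjusted p = 0.0598), and 0.33 to 0.41 with an array left out. It was 0.21 (adjusted p = 0.302) as the mean of its probe sets, and it passed after quantile normalization (adjusted p = 0.0445) and centring on array medians (adjusted p = 0.0456). Of 14 measured partners in malate and citrate metabolism 0 rose and 0 fell in limma, with a median of 0.03; unadjusted p was under 0.05 for 2 that were higher and 1 that was lower. The smallest p among them was that of GOT1, a transaminase of the malate-aspartate shuttle, at 0.15 (SE 0.059, adjusted p = 0.379).

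Of 12 measured folate and other NADPH-linked genes 1 rose and 0 fell, with a median of 0.07. It was SHMT2, the mitochondrial serine hydroxymethyltransferase, whose mean was 2160 with exosomes and 1780 with PBS. Its log2 fold change was 0.28 (SE 0.047, adjusted p = 0.0345), and without any 1 array it was 0.25 to 0.31 and never passed. SHMT2 feeds the folate cycle and makes no NADPH itself.

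A list called NADPH users here had 19 measured reductive enzymes, not all of which spend NADPH themselves, SRXN1 for example. Of these, 4 rose and 0 fell, with a median of 0.15. AKR1C1 and AKR1C2, which reduce steroid ketones, rose by 1.47 (SE 0.12, adjusted p = 0.00116) and 0.93 (SE 0.095, adjusted p = 0.00277) on the log2 scale, and both passed whichever array was left out. As the mean of its probe sets AKR1C2 had 0.54 (adjusted p = 0.00638). AKR1C1 averaged 99.8 with exosomes and 34.9 with PBS, a dim level. Its probe set carries the suffix _x_at, as do those of SHMT2 above and SQSTM1 below. Whether the AKR1C1 and AKR1C2 signals are separate was not tested. NQO1, a quinone reductase, rose by 0.28 (SE 0.045, adjusted p = 0.0291) and passed in none of those 4 fits. The list had 2 calls in each of them, 2 on the spike-in scale and 2 without a trend. The remaining call was BLVRB, a biliverdin and flavin reductase, at 0.23 (adjusted p = 0.0384), named after its value was seen.

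Among 16 measured NRF2 targets other than the members, 6 rose and 0 fell, with a median of 0.13. HMOX1, heme oxygenase, rose by 1.35 (SE 0.076, adjusted p = 1.37e-04), SLC7A11, the cystine transporter, by 0.56 (SE 0.045, adjusted p = 0.00108) and SQSTM1, an autophagy receptor, by 0.50 (SE 0.036, adjusted p = 5.0e-04). These 3 passed whichever array was left out, with 3 to 4 calls in the list. Without a trend the list had 2 calls, and SQSTM1 did not pass (adjusted p = 0.0668). The other calls were GCLM, NQO1 and FTL. NQO1, TXNRD1 and SRXN1 are in this list and in that of NADPH users. Earlier results of these data had shown the NRF2 genes higher, so their counts are no independent support for the members. On the spike-in scale the medians of the lists of pentose phosphate, folate, malate and citrate and NRF2 genes were -0.10, -0.07, -0.11 and -0.01, below 0, and that of NADPH users was 0.01.

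**Figure D5:**
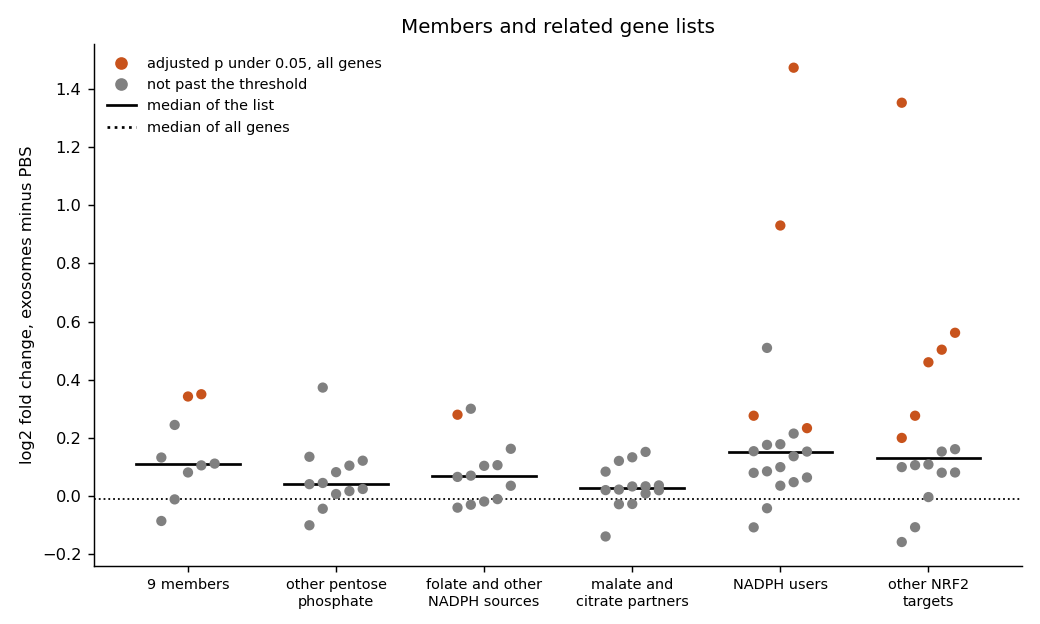
Log2 fold change, exosomes minus PBS (y axis), of the 9 members and of the genes in 5 related lists (x axis). Orange points passed an adjusted p under 0.05 over all genes, black lines are list medians and the dotted line is the median of all genes, -0.01. The largest values belong to AKR1C1 at 1.47 and HMOX1 at 1.35, and ME1 and IDH1 lie at 0.35 and 0.34.

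The genes whose 4 values were most like those of IDH1, as the root mean square difference of log2 deviations from the gene's own mean over 4 arrays, were SLC35F6 (0.0016), ZKSCAN1 (0.013) and PMAIP1 (0.015). They had log2 fold changes of 0.34, 0.36 and 0.37. With 4 arrays such likeness describes these values only.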

How the data were processed

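Gene expression was measured on Affymetrix arrays, 2 with PC-3 exosomes and 2 with PBS. The table deposited by the authors holds 1 normalized intensity per probe set on a linear scale. MAS5 and RMA are named in the submitters' processing notes with no role or version, and a genome build is not given in the sources used here. Of 49395 probe sets, 102 were controls, 44988 named 1 gene, 1832 several and 2473 none, by the platform annotation. 0 probe sets naming several genes named a member.

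Values were taken to log2 of the intensity plus 1 and fitted with lmFit and eBayes (trend, two-sided) of limma 3.58.1 under R 4.3.3. The brightest probe set by mean over the 4 arrays stood for each gene. A second fit used every single-gene probe set. P-values were adjusted by Benjamini-Hochberg over 18132 genes or 44988 probe sets, and the threshold was 0.05. The fits had 2 residual degrees of freedom, 6.99 prior ones for genes and 5.65 for probe sets. The fits were tested on simulated data.

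Members and lists were chosen with earlier results of these data known. All members are named, and of each list up to 3 genes past the threshold, or else the 1 with the smallest p. Likeness to IDH1, the member with the smallest p, was ranked among genes whose brighter group mean was at least the median level. Groups came from the sample titles. The titles number the arrays of each group 1 and 2, and the labels do not explain these numbers, so the main fit has no block. Same-numbered arrays did not deviate together (r = -0.040 across genes). Alternatives were other normalizations and centrings, a pseudocount of 16, a level filter, other variance models, the mean of probe sets, the replicate block and leaving out each array. Promoters came from RefSeq, and figures were drawn with matplotlib 3.10.9.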

Additional observations from a re-analysis of the deposited data

How the results depend on the processing

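With 2 arrays per group, replication limits the calls. As reported, 2 member genes and 3 member probe sets were higher. The gene count was 0 when centred on poly-A spike-ins, 0 with eBayes without a trend and 0 with the replicate block, and the probe set count was 0 in the last 2 of these. The probe set count was 5, with both ME1 probe sets added, when only features at or above the median level were tested, which leaves fewer tests to adjust for. With an array left out the counts were 0 to 1 genes and 0 to 0 probe sets. Over all genes, 127 were higher and 34 lower as reported, 18 and 3 without a trend, 2 and 0 with the replicate block, whose residual degrees of freedom are fewer, 28 to 40 and 4 to 7 with an array left out, 213 and 84 at or above the median level, and 176 and 69 after quantile normalization. All 5 related lists had 0 calls with the replicate block. In no setting was a member lower past the threshold. Across the single-gene log2 fold changes, 93 values kept direction and side of the threshold, 13 lost the call and 10 changed sign. The 13 were all values of ME1 and IDH1, the only members with a call to lose, so the 93 do not speak for the calls. Those that changed sign, none past the threshold, were IDH2 (-0.0079), ME2 (-0.059), TALDO1 (-0.029) and TKT (-0.035) on the spike-in scale. ME3 turned to 0.00042 when centred on array medians, 0.091 as the mean of its probe sets, 0.128 without exosome replicate 2 and 0.056 without PBS replicate 2, with a range of -0.153 to 0.128 when an array was left out. As means of probe sets NNT turned to 0.020 and TALDO1 to -0.015. NNT was not tested under the level filter. Apart from the shift of each scale and the calls named here, the cause of each change was not tested. Of the list counts, 104 stayed within 1.5 times the reported count and 26 did not. The 104 include counts of 0 that stayed 0. The lower counts were all 0 as reported and again 0, except 1 for malate and citrate partners on the spike-in scale. Counts reported above 0 moved more over the alternatives that used all 4 arrays. They ran from 0 to 2 for the folate list, 0 to 4 for NADPH users and 0 to 6 for NRF2 targets, against 1, 4 and 6 as reported.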

Other observations

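By the compartment of the enzyme, a grouping made after the values were seen, the 5 cytosolic members (ME1, IDH1, PGD, TALDO1 and TKT) had log2 fold changes of 0.10 to 0.35. The 4 mitochondrial ones (ME2, ME3, IDH2 and NNT) had -0.09 to 0.13. These are values of the brightest probe sets, and NNT was dim, at 14.6 to 30.4. As means of probe sets, the cytosolic members ran from -0.015 (TALDO1) to 0.41 (ME1). The mitochondrial ones then ran from 0.020 (NNT) to 0.13 (ME2). Single probe sets ran from -0.14 (TALDO1) to 0.48 (ME1) and from -0.09 (NNT) to 0.18 (ME2). The ranges overlap on each reading, and the difference was not tested. On the spike-in scale the cytosolic values were -0.035 to 0.21 and the mitochondrial ones -0.226 to -0.0079. Centring shifts all members equally, so their order and spacing were fixed beforehand. These values therefore add no weight to the difference between compartments.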
